A study of Sus scrofa with 9 samples.

Results

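Cells store fatty acids by joining them to glycerol. Acyl-CoA synthetases (the ACSL proteins) first attach coenzyme A to a fatty acid, acyltransferases then build phosphatidate on glycerol 3-phosphate, lipins remove its phosphate to leave diacylglycerol, and diacylglycerol acyltransferases (DGAT) complete triacylglycerol, which is kept in lipid droplets coated by perilipins. The same intermediates feed the synthesis of membrane phospholipids, and insulin is known to promote this storage route in fat and liver. The genes described are 10 that act along it: ACSL1, ACSL3 and ACSL4, GPAM, AGPAT2, LPIN1 and LPIN2, DGAT1 and DGAT2, and PLIN2. They were listed by name. The deposited files list 30477 gene IDs. Of the 10 members 9 were found by symbol, AGPAT2 was not analysed here, and 8 passed the filter for testing (3 or more libraries with an FPKM of 1 or higher, met by 11063 genes). DGAT2 did not pass.

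The samples are porcine embryonic fibroblasts, connective tissue cells grown from pig embryos, which were thawed and cultured before insulin was added. Untreated cells taken at 0 h were the control, and treated cells were taken 48 h and 72 h after insulin, with 3 libraries at each time that the submitters call biological replicates. The sources used here do not give the genotype, the number of cell lines, the insulin dose or the medium. Untreated cells kept for 48 h or 72 h were not analysed here, so insulin and time in culture cannot be told apart. The study's title asks which metabolic genes change with insulin.

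Values are FPKM, fragment counts scaled to gene length and library size. Per library they summed to 487858 to 497665 at 0 h, 524992 to 563656 at 48 h and 505022 to 525471 at 72 h. Each insulin library thus summed to more than each 0 h library, and the main fit applied no further scaling. From the steps between the lowest values, 48 h replicate 3 was put at 1.25 times the depth of 0 h replicate 1. For 48 h replicate 2 it was 1.07 times, and the other libraries came out level with 0 h replicate 1. Values have 2 decimals, so this measure is coarse and small differences in depth cannot be read from it. All 11 fibroblast markers found were tested, led by COL1A1, a chain of type I collagen, at 7019 to 8627 FPKM. At 48 h 6 of the 11 were called higher by limma, among them PDGFRA (mean FPKM 9.34 at 0 h, 26.9 at 48 h) and LUM (12.7 and 33.8), and 3 lower (COL1A1, COL1A2 and COL3A1). At 72 h 7 were higher and 1 lower, and from 48 h to 72 h again 7 and 1. Over all tested genes 27.6% were called higher and 22.4% lower at 48 h, and 23.0% and 22.5% at 72 h. From 48 h to 72 h these shares were 9.17% and 16.3%. The same background holds for the calls in the other marker lists below. Of 8 adipocyte markers found, ADIPOQ, LEP, PCK1 and RETN were listed at 0 in all 9 libraries, and the list summed to 0.970 to 1.25 FPKM at 0 h, 0.950 to 1.30 at 48 h and 1.41 to 1.67 at 72 h. LPL, the only one tested, had means of 0.817, 0.737 and 1.26 FPKM. It passed the filter only through insulin libraries, so its call as higher at 72 h is no support. FABP4 was not tested and had means of 0.27, 0.303 and 0.167 FPKM. Its ranges overlapped, at 0.14 to 0.44 FPKM at 0 h, 0.13 to 0.40 at 48 h and 0.09 to 0.32 at 72 h. The skeletal muscle list summed to 1430 to 1461 FPKM at 0 h, 862 to 941 at 48 h and 792 to 996 at 72 h, nearly all of it DES, an intermediate filament gene, while MYOD1, the muscle master regulator, was at 0.14 or less, with means of 0.02 at 0 h, 0.133 at 48 h and 0.0867 at 72 h. Of the 4 tested genes of this list limma called 3 lower and 1 higher at 48 h, and again at 72 h. MYH3 fell with DES, with means of 3.28, 1.63 and 0.93 FPKM. So did ACTA1, from a mean of 3.96 FPKM at 0 h to 0.95 to 1.15 at 48 h and 0.69 to 1.56 at 72 h. MYOG, a muscle differentiation factor, went the other way, with means of 0.453, 1.28 and 1.15 FPKM. All its 0 h libraries were below the filter's minimum, so it passed only through insulin libraries. The neural list, led by TUBB3, a tubulin, summed to 86.6 to 97.4 FPKM at 0 h, 160.2 to 186.0 at 48 h and 146.7 to 166.7 at 72 h. Its 3 tested genes did not move together. Their median log2 change was 0.06 at 48 h and -0.17 at 72 h. Limma called 1 higher and 0 lower at 48 h, and 1 higher and 1 lower at 72 h. The epithelial keratin KRT8, the only marker of its list tested, had means of 5.98, 11.8 and 8.95 FPKM. Of the 2 tested endothelial markers the claudin CLDN5 had means of 5.75, 1.5 and 1.49. The other, PECAM1, did not fall, with means of 0.787, 0.83 and 1.09 FPKM. It was not called at 48 h or 72 h and passed the filter only through insulin libraries. In the leukocyte list PTPRC and CD3E were listed at 0 throughout, but CD79A was at 9.77 to 12.9 FPKM at 0 h, 29.3 to 31.5 at 48 h and 15.9 to 42.1 at 72 h. The part of these lists in the results was not tested. In bulk RNA, fewer cells of a type and less RNA per cell cannot be told apart.

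Steps of the pathway moved in different directions. LPIN1 and ACSL3 were higher after insulin, PLIN2, GPAM, ACSL1 and LPIN2 were lower, ACSL4 was a little higher, and DGAT1 did not pass the test. At 48 h 7 of the 8 tested members were called (limma, Benjamini-Hochberg adjusted p below 0.05 over all 11063 genes), 3 higher and 4 lower. The background over all tested genes was 49.9% called, with 27.6% up and 22.4% down. At 72 h the count was again 7 of 8, 3 higher and 4 lower, where 45.5% of all genes were called, 23.0% higher and 22.5% lower. Both comparisons use the same 0 h libraries. The members' median log2 change was -0.10 at 48 h and -0.07 at 72 h, against 0.02 and -0.01 over all tested genes. Between 48 h and 72 h ACSL3 (higher) and PLIN2 (lower) were called, 25% of the 8, where 25.4% of all genes were called, 9.17% higher and 16.3% lower. Each of the 7 members called at 48 h and at 72 h also had groups that did not overlap with 0 h, which held for 60.0% of all genes at 48 h (32.4% higher, 27.6% lower) and 58.6% at 72 h (28.1% higher, 30.4% lower). Between 48 h and 72 h ACSL3, LPIN1 and PLIN2 did not overlap, as did 38.9% of all genes (14.9% higher, 23.9% lower). In limma's F test over the 3 times 7 of the 8 members passed, where 60.6% of all genes did.

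**Figure D1:**
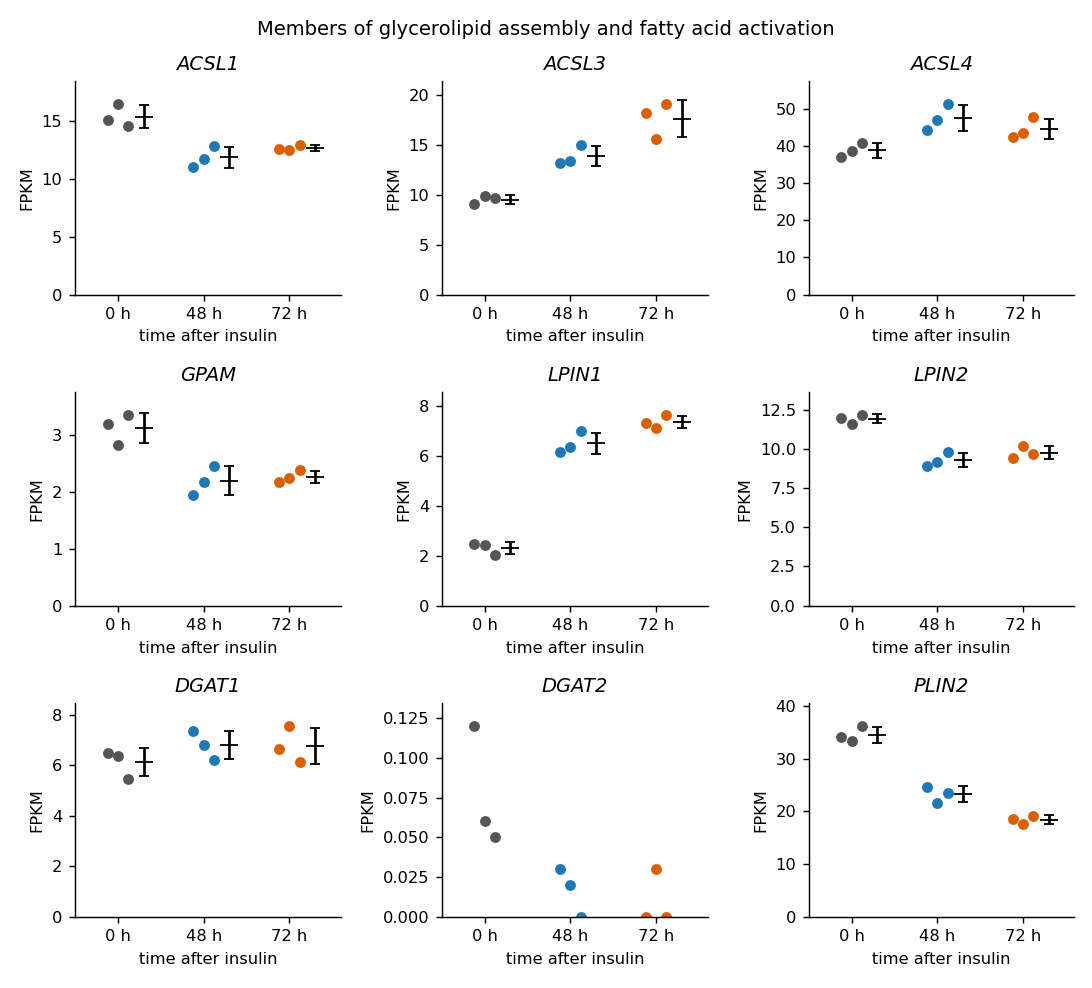
FPKM of the 9 members found in the files, by hours after insulin. Each dot is 1 library, and the bar beside each group is the mean ± SD (n = 3), not drawn for DGAT2, which is listed at 0 in 3 libraries. LPIN1 and ACSL3 are higher in every insulin library than in any 0 h library, and PLIN2, GPAM, ACSL1 and LPIN2 are lower.

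The acyl-CoA synthetases activate long-chain fatty acids. ACSL4, which prefers arachidonate and other polyunsaturated chains, was the most abundant of the 9 genes found, per length, at every time. Its FPKM was 36.9, 38.6 and 40.9 in 0 h replicates 1, 2 and 3, then 44.2, 47.0 and 51.3 at 48 h and 42.4, 43.6 and 47.7 at 72 h. No insulin library reached down into the 0 h range. ACSL4 rose by a log2 change of 0.28 ± 0.07 (SE) at 48 h (limma adjusted p = 0.00820), a change of log2(FPKM + 1) like all log2 changes here. At 72 h it rose by 0.19 ± 0.07, with an adjusted p of 0.0479. Both calls depended on the scaling. With all libraries brought to equal FPKM sums the changes were 0.15 (adjusted p = 0.164) and 0.14 (adjusted p = 0.203), and with quantile normalization 0.18 (adjusted p = 0.0919) and 0.16 (adjusted p = 0.138). The 72 h call was also lost without 0 h replicate 1, 2 or 3 (0.16, 0.19 and 0.23, adjusted p = 0.162, 0.109 and 0.0522), without 48 h replicate 2 (0.19, adjusted p = 0.0680), without 72 h replicate 1, 2 or 3 (0.23, 0.21 and 0.15, adjusted p = 0.0524, 0.0708 and 0.148) and with no filter on low values (adjusted p = 0.0746).

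ACSL1 and ACSL3 crossed over. ACSL3, found on the endoplasmic reticulum and on growing lipid droplets, was at 9.07, 9.89 and 9.65 FPKM at 0 h, 13.2, 13.4 and 15.0 at 48 h and 18.3, 15.6 and 19.1 at 72 h. The 3 times did not overlap. ACSL3 rose by 0.50 ± 0.08 at 48 h (limma adjusted p = 8.50e-04) and by 0.82 ± 0.08 at 72 h (adjusted p = 1.98e-05), which made its mean at 72 h 1.85 times that at 0 h. It was also higher at 72 h than at 48 h, by 0.32 ± 0.08 (adjusted p = 0.0192). That call was lost when 48 h replicate 1 or 2 was left out (0.29 and 0.30, adjusted p = 0.0569 and 0.0669), and likewise 72 h replicate 1 or 3 (0.30 and 0.27, adjusted p = 0.0650 and 0.0667). ACSL1, the main form of fat and muscle, was at 15.1, 16.5 and 14.5 FPKM at 0 h, 11.02, 11.7 and 12.8 at 48 h and 12.6, 12.4 and 12.9 at 72 h. Its 48 h and 72 h ranges overlapped each other but not that of 0 h. ACSL1 fell by 0.35 on the log2 scale at 48 h (SE 0.07, limma adjusted p = 0.00271) and by 0.26 at 72 h (adjusted p = 0.0134). Without 0 h replicate 2 its 72 h change was -0.21, with an adjusted p of 0.0630.

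The share of each gene within its family does not depend on how a library was scaled. ACSL1 held 20.8% ± 1.55 (SD, n = 3) of the summed FPKM of ACSL1, ACSL3, ACSL4, ACSL5 and ACSL6 at 0 h, 13.7% ± 0.155 at 48 h and 14.8% ± 0.474 at 72 h. ACSL3 held 12.9% ± 0.290, 16.1% ± 0.310 and 20.6% ± 1.35. So ACSL1 had the larger share at 0 h, and ACSL3 the larger at 48 h and 72 h. The share of ACSL4 was 52.5% ± 1.06, 54.9% ± 0.566 and 52.0% ± 1.6. An exact permutation test of the F statistic over all 1680 arrangements of the 9 libraries gave p = 0.00357 for both ACSL1 and ACSL3, the smallest it can give (adjusted p = 0.0143 over 8 shares tested). For ACSL4 the adjusted p of the exact test was 0.0643. The family sum was 73.9 ± 2.74 FPKM at 0 h, 86.4 ± 5.65 at 48 h and 85.7 ± 4.55 at 72 h. ACSL5, another member of the family, rose at 48 h (0.35 ± 0.07, limma adjusted p = 0.00223; 0.22 at equal FPKM sums) and was at 0.08 ± 0.07 at 72 h. ACSL6, a form of brain, was at 0.03 FPKM in 1 library and listed at 0 in the other 8.

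**Figure D2:**
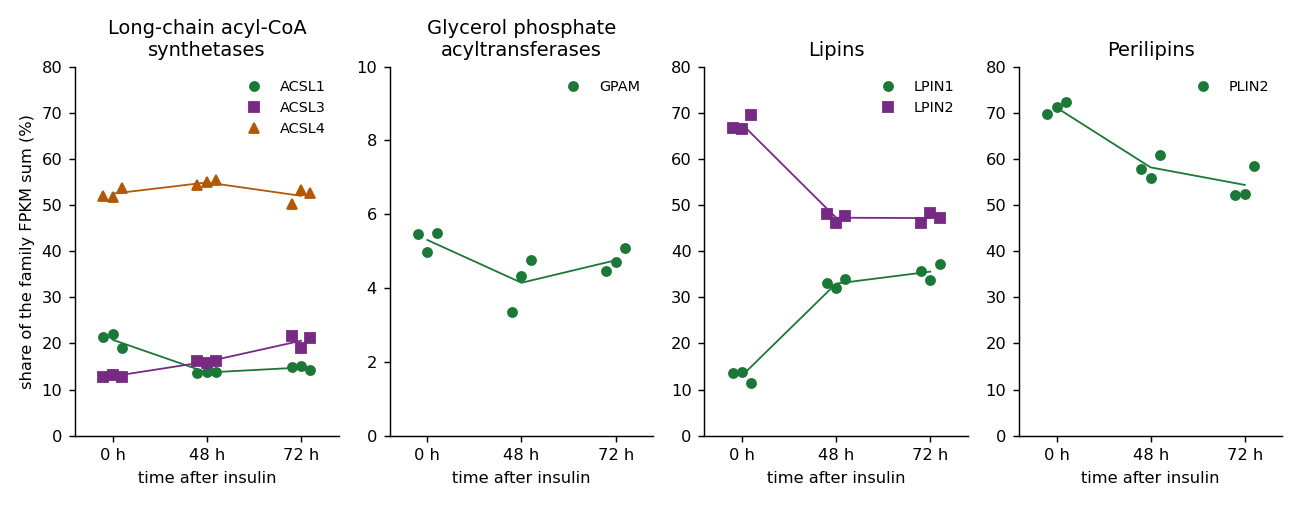
Share of each gene in the FPKM sum of its family (percent), by hours after insulin. Each symbol is 1 library and lines join the means, and the axis of the glycerol phosphate acyltransferases ends at 10%. The share of LPIN1 went from 13.0% to 35.6% between 0 h and 72 h, and ACSL3 passed ACSL1.

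GPAM, the mitochondrial glycerol phosphate acyltransferase, adds the acyl chain that starts glycerolipid synthesis and is known in liver as a target of SREBP1, the factor encoded by SREBF1. It was low in these cells, at 3.20, 2.83 and 3.35 FPKM at 0 h, 1.95, 2.18 and 2.46 at 48 h and 2.17, 2.24 and 2.38 at 72 h. Every insulin library was below every 0 h library. GPAM fell by 0.37 on the log2 scale at 48 h (SE 0.09, limma adjusted p = 0.00592) and by 0.34 at 72 h (SE 0.09, adjusted p = 0.00974). Its mean FPKM fell by 29.7% and by 27.6%. The larger part of the family was GPAT4, the form of the endoplasmic reticulum, at 48.8 ± 1.08 FPKM at 0 h, 43.6 ± 3.98 at 48 h and 38.4 ± 0.81 at 72 h. GPAT4 fell by 0.34 at 72 h (limma adjusted p = 0.00188) and was at -0.16 at 48 h (adjusted p = 0.0614), where it was called under all 3 other scalings (-0.30 at equal FPKM sums, adjusted p = 0.00167), with library weights (-0.23, adjusted p = 0.00147) and without 48 h replicate 1 (-0.24, adjusted p = 0.00600). GPAT3 was at 0.13 ± 0.10 and 0.01 ± 0.10. The share of GPAM in the sum with GPAT3 and GPAT4 was 5.30% ± 0.285, 4.15% ± 0.716 and 4.75% ± 0.325, which did not pass the exact permutation test (adjusted p = 0.0643), but did without 48 h replicate 3 (adjusted p = 0.0190).

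AGPAT enzymes add the next acyl chain and make phosphatidate. AGPAT2, whose loss in people causes a lack of body fat, was not analysed here, and its family was described by the other 4. AGPAT3 rose at both times, by 0.33 ± 0.06 and 0.36 ± 0.06 (limma adjusted p = 0.00139 and 7.50e-04), with 0.20 at 48 h at equal FPKM sums (adjusted p = 0.00953). AGPAT4 rose by 0.29 ± 0.09 at 48 h (adjusted p = 0.0175) and by 0.51 ± 0.09 at 72 h (adjusted p = 7.73e-04). Its 48 h call was lost without 0 h replicate 3 (0.26, adjusted p = 0.0686) and at equal sums (0.17, adjusted p = 0.122), and the change was 0.20 without 48 h replicate 1 (adjusted p = 0.0465). AGPAT1 was at 0.19 ± 0.07 at 48 h (adjusted p = 0.0502) and 0.00 ± 0.07 at 72 h, and AGPAT5 at -0.12 ± 0.08 and -0.09 ± 0.08. AGPAT1 was called at 48 h without 48 h replicate 2 (0.25, adjusted p = 0.0312), 72 h replicate 1 (adjusted p = 0.0488) or 72 h replicate 3 (adjusted p = 0.0363), in a fit of 0 h and 48 h alone (adjusted p = 0.0434) and when genes under a mean of 5 FPKM were dropped (adjusted p = 0.0471), and AGPAT5 at equal sums (-0.24, adjusted p = 0.0413).

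The lipins dephosphorylate phosphatidate. LPIN1, which also acts in the nucleus as a coregulator of transcription, had the largest change of the 8 tested members. Its FPKM was 2.46, 2.42 and 2.02 at 0 h, 6.15, 6.37 and 6.99 at 48 h and 7.31, 7.14 and 7.64 at 72 h. The groups did not overlap, and even the lowest insulin library was above 6 FPKM. LPIN1 rose by 1.19 ± 0.08 at 48 h (limma adjusted p = 2.75e-06) and by 1.34 ± 0.08 at 72 h (adjusted p = 3.00e-07), and its mean FPKM was 2.83 and 3.20 times that at 0 h. From 48 h to 72 h the change was 0.16 ± 0.08 (95% interval -0.02 to 0.34, adjusted p = 0.169). LPIN2, the main lipin at 0 h, was at 12, 11.6 and 12.2 FPKM at 0 h, 8.94, 9.20 and 9.80 at 48 h and 9.44, 10.2 and 9.66 at 72 h. LPIN2 fell by 0.33 at 48 h (SE 0.06, limma adjusted p = 0.00190) and by 0.26 at 72 h (SE 0.06, adjusted p = 0.00620), and its 48 h and 72 h ranges overlapped.

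The makeup of the lipins changed with these opposite moves. Of the summed lipins LPIN1 made up 13.0% ± 1.29 at 0 h, 33.0% ± 0.954 at 48 h and 35.6% ± 1.77 at 72 h, and LPIN2 made up 67.5% ± 1.68, 47.3% ± 0.944 and 47.2% ± 1.08. LPIN2 stayed the larger in all 9 libraries. The exact permutation test gave an adjusted p of 0.0190 for LPIN1 and 0.0429 for LPIN2. For LPIN2 the adjusted p was 0.0514 without 48 h replicate 1, and 0.0514 on the log2 ratio of LPIN2 to the other lipins. The sum of the lipins was 17.7 ± 0.269 FPKM at 0 h, 19.7 ± 1.02 at 48 h and 20.7 ± 0.396 at 72 h. LPIN3, the least abundant lipin after insulin, was at 0.14 ± 0.09 and 0.04 ± 0.09 and was not called, except at 48 h with library weights (0.23, limma adjusted p = 0.0122).

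**Figure D3:**
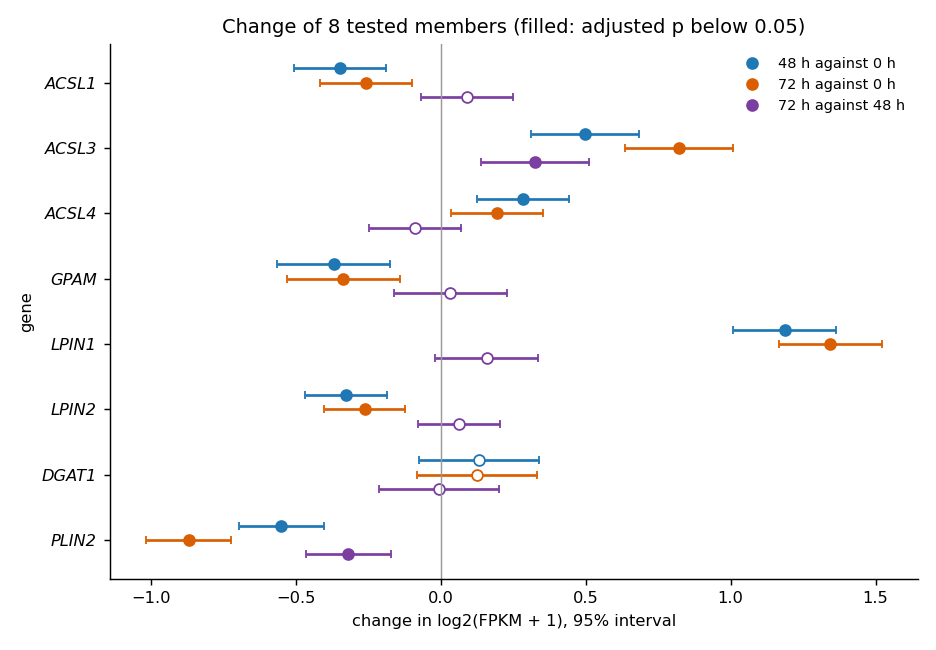
Change of log2(FPKM + 1) of the 8 tested members with 95% intervals from limma, of each insulin time against 0 h and of 72 h against 48 h. Filled dots passed an adjusted p of 0.05. LPIN1 lies at 1.19 and 1.34 against 0 h and PLIN2 at -0.55 and -0.87, while all 3 intervals of DGAT1 hold 0.

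DGAT1 and DGAT2 are unrelated enzymes that both make triacylglycerol. DGAT1 was at 6.48, 6.37 and 5.47 FPKM at 0 h, 7.34, 6.79 and 6.22 at 48 h and 6.62, 7.54 and 6.11 at 72 h. The 3 ranges overlapped. Its change was 0.13 at 48 h (95% interval -0.08 to 0.34, limma adjusted p = 0.265) and 0.13 at 72 h (-0.08 to 0.33, adjusted p = 0.303), so a rise of up to about 0.34 or a fall of 0.08 lies within the interval. DGAT2, the form that acts on newly made fatty acids in liver and fat, was at 0.12, 0.06 and 0.05 FPKM at 0 h, 0.03, 0.02 and 0 at 48 h and 0, 0.03 and 0 at 72 h. Each 0 h value was above each insulin value. With no filter on low values DGAT2 entered the fit at -0.08 ± 0.03 at 48 h (limma adjusted p = 0.0531) and -0.09 ± 0.03 at 72 h (adjusted p = 0.0370). Values this low rest on few fragments. DGAT1 held between 98.2% and 100% of the sum of both in every library. This share passed the exact permutation test (adjusted p = 0.0400). The pass rests on DGAT2 values of 0.12 FPKM or less, and DGAT1 itself was not called.

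PLIN2 coats lipid droplets in most cells outside fat and rises with lipid load, and on the log2(FPKM + 1) scale it fell most of the 8 tested members. Its FPKM was 34.1, 33.3 and 36.1 at 0 h, 24.7, 21.6 and 23.4 at 48 h and 18.5, 17.6 and 19.2 at 72 h. The 3 times did not overlap, and each later group lay below the one before. PLIN2 fell by 0.55 on the log2 scale at 48 h (SE 0.07, limma adjusted p = 9.68e-05) and by 0.87 at 72 h (SE 0.07, adjusted p = 2.07e-06), and its mean FPKM fell by 32.6% and by 46.6%. From 48 h to 72 h it fell by 0.32 (adjusted p = 0.00671), a call that held with each library left out in turn. PLIN3, a coat protein that also resides in the cytosol, was at 14.0 ± 0.72 FPKM at 0 h, 16.7 ± 1.47 at 48 h and 15.4 ± 1.72 at 72 h. Its 48 h call (0.24 ± 0.09, limma adjusted p = 0.0480) was lost at equal FPKM sums (0.11, adjusted p = 0.274), without 0 h replicate 1, 2 or 3 (adjusted p = 0.0566, 0.137 and 0.117), without 48 h replicate 1 or 2 (adjusted p = 0.147 and 0.120) and without 72 h replicate 2 (adjusted p = 0.0538). The PLIN3 call was also lost with quantile normalization (adjusted p = 0.050045), median ratio scaling (adjusted p = 0.0738) and no filter (adjusted p = 0.0919). Of the summed perilipins PLIN2 was 71.1% ± 1.30 at 0 h, 58.2% ± 2.41 at 48 h and 54.4% ± 3.61 at 72 h (exact permutation test, adjusted p = 0.0214). PLIN1, the coat of the fat cell, was at 0.11 FPKM or less, PLIN4 at 0.02 or less, and PLIN5 was listed at 0 in all 9 libraries.

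Per length, the order of the members changed after insulin. At 0 h it ran ACSL4, PLIN2, ACSL1, LPIN2, ACSL3, DGAT1, GPAM, LPIN1 and DGAT2, and no neighbours overlapped. At 48 h ACSL3 stood above ACSL1, and LPIN1 stood next to DGAT1 with ranges that overlapped. At 72 h PLIN2 and ACSL3 overlapped (means of 18.4 and 17.7 FPKM), as did LPIN1 and DGAT1 (7.36 and 6.76). GPAM and DGAT2 were the lowest at both later times.

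As a description, the tested genes whose log2 values over the 9 libraries followed each member most closely were also listed, 2 per member, with correlations that mostly reflect the differences between the 3 times. LPIN1 went with CYP51A1, an enzyme of cholesterol synthesis, and SCD, which puts a double bond into saturated fatty acyl chains (Pearson r = 0.994 for both, 9 libraries). PLIN2 went with MYBL1 and TUBB (0.994 and 0.993), and ACSL3 with ARHGAP28 and FGF2 (0.989 and 0.986). GPAM went with SPTLC2, a subunit of the enzyme that starts sphingolipid synthesis, and SYNJ1 (0.986 and 0.980), LPIN2 with ZNF518B and STK4 (0.991 and 0.987), ACSL1 with MAP3K3 and EP400 (0.987 and 0.983), ACSL4 with PRKD1 and BMAL2 (0.967 and 0.955), and DGAT1 with TGFBRAP1 and HOXD4 (0.965 and 0.926).

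The rest of the route was followed with 10 lists of 95 other genes of fatty acid activation, glycerolipid and phospholipid synthesis, droplets and lipolysis, of which 66 were tested. At 48 h 36 rose and 2 fell, with a median log2 change of 0.26 against 0.02 over all genes, and 54.5% of them were called higher and 3.03% lower, where the background is 27.6% and 22.4%. At 72 h 31 rose and 7 fell, with a median of 0.15 against -0.01, or 47.0% higher and 10.6% lower, where the background is 23.0% and 22.5%. ACSS1, SLC27A3 and PNPLA3 were below 1 FPKM in all 0 h libraries and passed the filter only through insulin libraries, so their calls are no support. Without them 34 of 63 rose and 2 fell at 48 h, and 29 rose and 7 fell at 72 h. Single lists are small, and for each the background is 49.9% called at 48 h and 45.5% at 72 h. The split depended on the scaling at 48 h. It was 24 higher and 14 lower at equal FPKM sums, which lowered the median of all genes by 0.12 (-0.12), and 32 and 6 with quantile normalization. Over all genes the share of calls that were higher at 48 h was 55.2%, and 34.7% at equal sums. Between 48 h and 72 h 1 of the 66 rose and 8 fell (13.6%, where 25.4% of all genes were called), or 6 and 4 at equal sums.

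**Figure D4:**
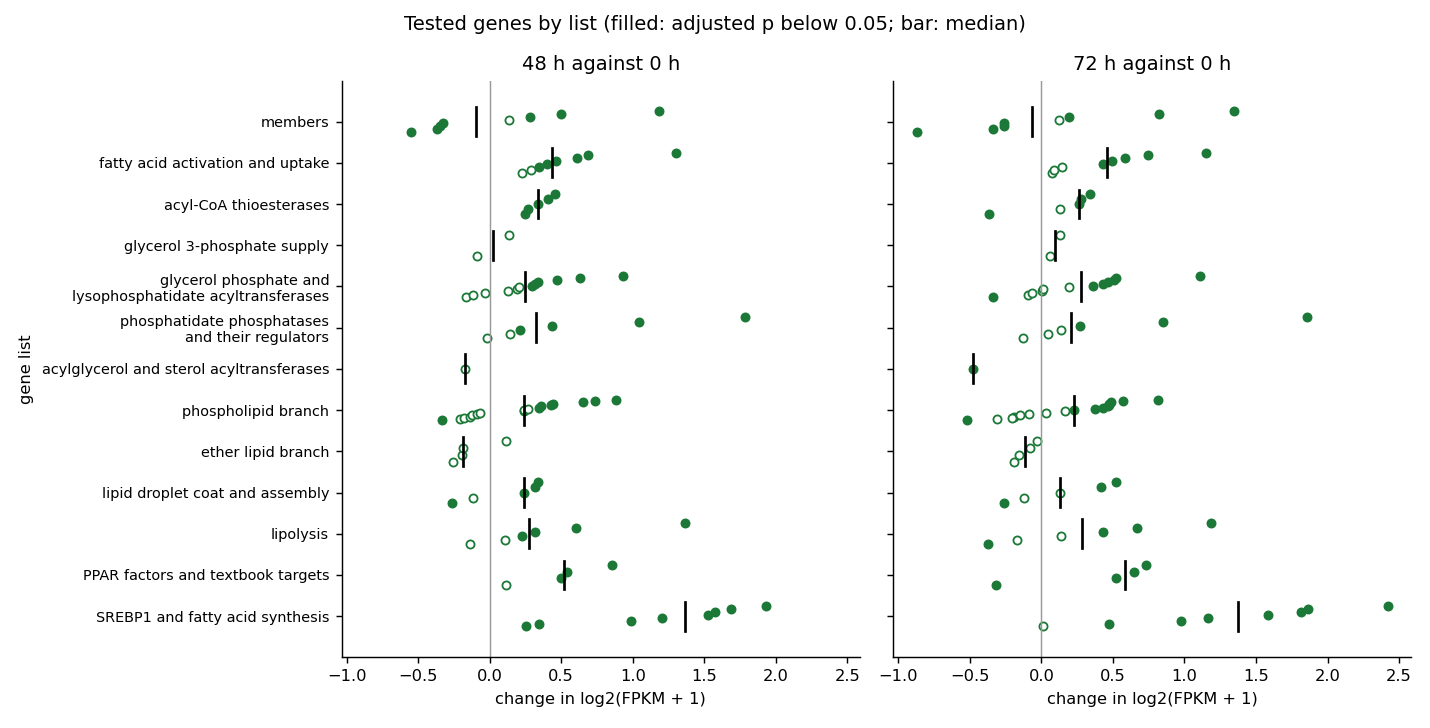
Change of log2(FPKM + 1) at 48 h (left) and 72 h (right) against 0 h for each tested gene, by list. Filled dots passed an adjusted p of 0.05 and bars mark list medians. The SREBP1 list has a median of 1.37 at both times, while the 8 tested members lie on both sides of 0.

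In fatty acid activation and uptake, leaving out ACSS1 and SLC27A3, 5 of 6 genes rose at 48 h and 4 at 72 h, and 0 fell. ACSS2, which activates acetate for lipid synthesis, rose by 1.30 ± 0.08 and 1.15 ± 0.08 (limma adjusted p = 1.08e-06 and 6.98e-07). ACSS1, its mitochondrial relative, was at 0.233 ± 0.0907 FPKM at 0 h, 0.980 ± 0.0458 at 48 h and 1.07 ± 0.189 at 72 h (log2 changes of 0.69 and 0.74, or 1.74 and 1.84 with a pseudocount of 0.1). ACSF2 rose at 48 h by 0.40 ± 0.06 and was at 0.09 ± 0.06 at 72 h. Of 5 tested thioesterases, which release fatty acids from coenzyme A, 5 rose at 48 h, and 3 were called higher and 1 lower at 72 h. Each of those 3 higher calls was lost in several fits. That of ACOT8 (0.34) was lost without 0 h replicate 2 or 3 (adjusted p = 0.0707 and 0.0589) or 72 h replicate 2 (adjusted p = 0.0761). That of ACOT11 (0.26) was lost without 0 h replicate 2 or 3 (adjusted p = 0.0679 and 0.133) or 72 h replicate 1, 2 or 3 (adjusted p = 0.0519, 0.0979 and 0.0648). That of ACOT13 (0.28) was lost without 0 h replicate 1, 2 or 3 (adjusted p = 0.131, 0.101 and 0.0754), 48 h replicate 2 or 3 (adjusted p = 0.0654 and 0.0541) or 72 h replicate 2 or 3 (adjusted p = 0.123 and 0.154). The 48 h call of ACOT13 (0.34) was lost without 0 h replicate 1 or 2 (adjusted p = 0.0638 and 0.0510) or 48 h replicate 1 (adjusted p = 0.0600). ACOT8, of peroxisomes, rose by 0.46 ± 0.10 at 48 h (adjusted p = 0.00420), and ACOT11 by 0.41 ± 0.09 (adjusted p = 0.00384). ACOT7, a cytosolic form, was called higher at 48 h (0.25 ± 0.07, adjusted p = 0.0163) and lower at 72 h (-0.37 ± 0.07, adjusted p = 0.00197). Its 48 h call was lost at equal sums (0.12, adjusted p = 0.184) and when either 0 h replicate 2 or 48 h replicate 1 was left out (0.21 and 0.20, adjusted p = 0.0694 and 0.0531). The 2 tested genes of glycerol 3-phosphate supply, GPD1L and GPD2, were not called by limma at either time, and 0 of them had an unadjusted p below 0.05.

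Among the other acyltransferases of glycerol phosphate and lysophospholipids 6 of 12 rose at 48 h and 0 fell. At 72 h 6 rose and 1 fell. The share called at 48 h in either direction was 50%, close to the 49.9% of all genes. By direction it was 50% higher and 0% lower, where all genes had 27.6% and 22.4%. At 72 h it was 50% and 8.33%, beside 23.0% and 22.5%. These differences were not tested. LPCAT3, which puts polyunsaturated chains into phosphatidylcholine, rose from 13.4 ± 1.14 FPKM to 26.5 ± 3.07 and 30.0 ± 0.761 (0.93 ± 0.09 and 1.11 ± 0.09, limma adjusted p = 1.90e-05 and 2.68e-06). LPCAT4 rose by 0.63 ± 0.08 and 0.52 ± 0.08. Of 6 phosphatidate phosphatases and regulators of lipins 4 rose at 48 h and 3 at 72 h, and 0 fell. PLPP3, a cell surface phosphatase of lipid phosphates, rose from 14.8 ± 0.848 FPKM to 53.5 ± 6.22 and 56.1 ± 3.23 (1.79 ± 0.08 and 1.86 ± 0.08), more than LPIN1 in log2 terms. Its relative PLPP2 rose by 1.04 ± 0.15 and 0.85 ± 0.15. CTDNEP1, the phosphatase that activates lipins, rose at 48 h by 0.44 ± 0.07 (adjusted p = 3.80e-04, 0.28 with quantile normalization) and was at 0.14 ± 0.07 at 72 h (adjusted p = 0.108), where it was called without 48 h replicate 1 (adjusted p = 0.0425). SOAT1, which makes cholesterol esters for droplets, fell by 0.48 at 72 h (adjusted p = 2.10e-04) and was at -0.17 at 48 h (adjusted p = 0.0525), where it was called at equal sums (-0.30), with median ratio scaling (adjusted p = 0.0283) and with library weights (adjusted p = 0.0207).

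In the phospholipid branch 8 of 17 rose and 1 fell at 48 h (52.9% called in either direction, near the 49.9% of all genes). At 72 h 9 rose and 2 fell (64.7%, beside 45.5%). By direction 47.1% were higher and 5.88% lower at 48 h, where all genes had 27.6% and 22.4%. At 72 h it was 52.9% and 11.8%, beside 23.0% and 22.5%. These differences were not tested. PCYT2, which controls phosphatidylethanolamine synthesis, rose by 0.88 ± 0.09 and 0.57 ± 0.09 (limma adjusted p = 4.30e-05 and 5.74e-04), and CHKA, a choline kinase, by 0.73 ± 0.09 and 0.47 ± 0.09. ETNK1, an ethanolamine kinase, rose at 72 h by 0.81 ± 0.13 (adjusted p = 5.76e-04) and was at 0.27 ± 0.13 at 48 h (adjusted p = 0.121), where it was called without 48 h replicate 1 (0.38, adjusted p = 0.0444). PTPMT1, of cardiolipin synthesis, fell by 0.52 at 72 h (adjusted p = 0.00322). PTDSS1, a phosphatidylserine synthase, was the other gene called lower at 72 h (-0.19), a call lost without 0 h replicate 1, 2 or 3 (adjusted p = 0.0741, 0.0910 and 0.104) or 72 h replicate 2 or 3 (adjusted p = 0.0787 and 0.102). SELENOI, which makes phosphatidylethanolamine, was the gene called lower at 48 h (-0.33), and its adjusted p was above 0.05 without any 1 of the 0 h libraries (0.0784, 0.0894 and 0.134), 48 h replicate 1 or 2 (0.172 and 0.137) or 72 h replicate 1 or 3 (0.0630 and 0.0536), with a change of -0.22 without 48 h replicate 1. Of the 4 genes of ether lipid synthesis 0 were called by limma at either time. AGPS and FAR1 had an unadjusted p below 0.05 at 48 h (changes of -0.26 and -0.19), and 0 of the 4 did at 72 h.

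Among droplet genes BSCL2, which encodes seipin at the sites where droplets form, rose by 0.34 ± 0.09 and 0.41 ± 0.09 (limma adjusted p = 0.00909 and 0.00301), with 0.21 at 48 h at equal FPKM sums. HILPDA, an inhibitor of droplet lipolysis, rose at 72 h by 0.52 ± 0.11 (adjusted p = 0.00380). Its 48 h call (0.31, adjusted p = 0.0414) was lost without 0 h replicate 1, 2 or 3 (adjusted p = 0.0822, 0.0734 and 0.111), without 48 h replicate 1 or 2 (adjusted p = 0.0900 and 0.130) and at equal FPKM sums (0.18, adjusted p = 0.171). The HILPDA call was also lost with quantile normalization (adjusted p = 0.0699), median ratio scaling (adjusted p = 0.0619) and no filter (adjusted p = 0.0981). FITM2, a droplet-forming protein, fell by 0.26 at both times (adjusted p = 0.0154 and 0.0165), calls that were lost without 0 h replicate 1 or 2 (adjusted p = 0.0527 and 0.0582 at 48 h, 0.0578 and 0.0622 at 72 h), without 48 h replicate 2 (0.0559, at 48 h) and without 72 h replicate 2 or 3 (0.0599 and 0.0514, at 72 h). In all, 3 of 5 tested droplet genes rose and 1 fell at 48 h, and 2 rose and 1 fell at 72 h. Of 5 lipolysis genes, leaving out PNPLA3, 3 rose at 48 h and 0 fell, and 2 rose and 1 fell at 72 h. PNPLA3, a droplet protein and SREBP1 target in liver, was at 0.853 ± 0.161 FPKM at 0 h, 3.78 ± 0.476 at 48 h and 3.22 ± 0.364 at 72 h (log2 changes of 1.36 and 1.19, the latter 1.81 with a pseudocount of 0.1). MGLL, which splits monoacylglycerol, rose by 0.60 ± 0.08 and 0.67 ± 0.08. LIPE, hormone-sensitive lipase, fell by 0.38 at 72 h (adjusted p = 0.00506) and was at 0.11 ± 0.09 at 48 h.

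The 8 genes of SREBP1 and fatty acid synthesis were counted beside the members. All 8 rose at 48 h and 7 at 72 h, with a median of 1.37 at both times, and ACLY at 0.01 ± 0.06 was the exception at 72 h. Over all tested genes 27.6% were called higher at 48 h and 23.0% at 72 h. The 48 h call of ACLY was lost at equal sums (0.11, limma adjusted p = 0.211) and with quantile normalization (0.07, adjusted p = 0.450). SREBF1 rose by 1.52 ± 0.08 and 1.86 ± 0.08 and FASN by 1.69 ± 0.06 and 1.82 ± 0.06, where GPAM fell. The difference between this list and the members was not tested. Of 10 PPAR factors and textbook PPAR targets 4 were tested. At both times 3 of them rose, beside 27.6% and 23.0% of all genes. CPT1A, the gate of mitochondrial fatty acid oxidation, fell by 0.32 at 72 h (limma adjusted p = 0.0177), which was lost without 0 h replicate 3 (-0.30, adjusted p = 0.0589) or 72 h replicate 1 (-0.22, adjusted p = 0.0634). RXRA, the partner of PPAR factors, rose by 0.54 ± 0.08 and 0.65 ± 0.08, and ANGPTL4, an inhibitor of lipoprotein lipase, by 0.85 ± 0.13 and 0.73 ± 0.13 (1.28 and 1.11 with a pseudocount of 0.1). PPARG, the fat cell regulator, was at 0.73 to 1.08 FPKM at 0 h, 0.76 to 1.37 at 48 h and 0.11 to 0.33 at 72 h, and was not tested.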

How the data were processed

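RNA from 9 libraries of porcine embryonic fibroblasts was measured, 3 at each time. Libraries were made from total RNA depleted of rRNA, per the labels' protocols, so transcripts without a poly(A) tail can enter. The authors deposited FPKM per gene with 2 decimals, per the file headers. RSEM 1.2.28, DESeq2, HISAT2 2.1.0, featureCounts 2.0.2 and the build Sscrofa11.1 are named, without roles, per the submitters' processing notes. The sources used here do not say whether strand was used. FPKM are scaled within a library, so abundant transcripts that rise lower all others. The read depth is unknown, so no counting interval was given; relative depth came from 59 to 90 low genes per library.

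IDs were paired with symbols for 14864 genes, 9875 of those tested. Coordinates are from RefSeq on Sscrofa11.1, matched by symbol. GPAM (ENSSSCG00000010631) lies on chromosome 14 at 122538600 to 122582390, LPIN1 (ENSSSCG00000008624) on chromosome 3 at 124940557 to 125074137, LPIN2 (ENSSSCG00000038494) on chromosome 6 at 103625725 to 103728151, DGAT1 (ENSSSCG00000005918) on chromosome 4 at 452890 to 463665, DGAT2 (ENSSSCG00000034102) on chromosome 9 at 10032163 to 10066082, ACSL1 (ENSSSCG00000015784) on chromosome 15 at 45866858 to 45936327, ACSL3 (ENSSSCG00000016223) on chromosome 15 at 124741986 to 124816955, ACSL4 (ENSSSCG00000012583) on chromosome X at 89760863 to 89838103 and PLIN2 (ENSSSCG00000035863) on chromosome 1 at 203683867 to 203709277. All are protein-coding.

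Values were taken as log2(FPKM + 1), which understates changes of low genes, for genes at 1 FPKM or more in 3 or more libraries. One limma 3.58.1 fit (R 4.3.3) held all 9 libraries, with group as the only term and a trended prior; p-values are two-sided, Benjamini-Hochberg adjusted over 11063 genes. Family shares were tested by exact permutation (Python 3.11.15), two-sided, adjusted over 8 shares; that of AGPAT2 was not run. Listed genes whose ID or symbol was not matched, such as CD36, GPAT2 and CIDEA, were not analysed here. Where nothing ties the replicates to separate animals, p-values measure the spread between these cultures. Alternatives were a pseudocount of 0.1, no filter, a mean FPKM of at least 5, quantile, equal-sum and median ratio scaling, library weights, fits of the compared groups alone, a replicate block and each library left out. The limma fit was tested on simulated data for 48 h against 0 h, with 100 genes moved by 0.5 and 100 by 1 on the log2 scale. It called 72% and 94% of these, and 7.26% of its calls were false. Far more genes, 49.9%, were called in the data themselves. The test of shares was not part of that simulation. Members, lists, tests and the naming rule (all members and paralogs, and per list and comparison up to 2 called genes each with the largest rise and fall, plus SREBF1 and FASN) were chosen with earlier results of these data known. ACOT13, AGPS, FAR1, SLC27A3, GPD1L, GPD2 and PPARG were named after their values were seen.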

Additional observations from a re-analysis of the deposited data

Results flagged for a closer look

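For these genes the test of 72 h against 48 h passed in the fit of all 9 libraries (limma adjusted p below 0.05). Several of the calls were lost under the alternatives. Of the members, ACSL3 moved further up by 0.32 and PLIN2 further down, at -0.32. The other genes higher at 72 h than at 48 h were ETNK1 at 0.55, SCD at 0.49 and SREBF1 at 0.34. The genes lower at 72 h than at 48 h were ACOT7 at -0.62, LIPE at -0.49, CPT1A at -0.43, ACSF2 at -0.32, PCYT2 at -0.31, SOAT1 at -0.30, CTDNEP1 at -0.30, ACSL5 at -0.27, ACLY at -0.24 and PGS1 at -0.22. The call of ACSL5 was lost without 48 h replicate 2 (-0.26, adjusted p = 0.0593). That of PCYT2 was lost without 48 h replicate 1 or 2 (-0.24 and -0.30, adjusted p = 0.111 and 0.0917) and without 72 h replicate 1 or 3 (-0.29 and -0.26, adjusted p = 0.0989 and 0.107). That of PGS1 was lost without 0 h replicate 1 (adjusted p = 0.0662), 48 h replicate 1 or 2 (adjusted p = 0.126 and 0.102) or 72 h replicate 1, 2 or 3 (adjusted p = 0.0548, 0.0836 and 0.125). At equal FPKM sums the calls of ACSL5, ACLY, PCYT2, PGS1 and SOAT1 were lost (adjusted p = 0.0878, 0.134, 0.0577, 0.126 and 0.0513). Those of ACLY, PCYT2 and PGS1 were lost with quantile normalization (adjusted p = 0.126, 0.0592 and 0.133) and in fits of the compared groups alone (adjusted p = 0.0580, 0.0516 and 0.0675). Those of PCYT2 and PGS1 were also lost with median ratio scaling (adjusted p = 0.0541 and 0.0758) and with no filter (adjusted p = 0.0787 and 0.0747).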

How the results depend on the processing

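Over 429 values of the members under the alternatives, 412 kept their side of the threshold and 17 lost the call, all of them of ACSL4, ACSL3 (72 h against 48 h) and ACSL1 (72 h), as given above; the cause was not tested. All 286 values of changes that were called kept their direction, and of the 143 values of changes that were not, 7 turned it (DGAT1 and GPAM, 72 h against 48 h). For the called changes most of this was fixed in advance. Their groups did not overlap, so leaving out a library could not turn the direction. Fits of the compared groups alone and the replicate block leave the change itself as it was. Only the scalings could have turned a called change. Member calls numbered 7 at 48 h without any 1 library, 5 to 7 at 72 h and 1 to 2 for 72 h against 48 h. Calls in the wider lists ranged from 29 to 39, 31 to 42 and 7 to 13 without 1 library, and those over all genes from 4389 to 5757, 4039 to 5435 and 1725 to 3690. For 72 h against 48 h, the wider lists had 9 calls, 19 with library weights and 14 with the replicate block, and all genes 2814 calls (36.0% higher), 1839 when only those 6 libraries were fitted, 1725 without 48 h replicate 2 and 1868 without 72 h replicate 1; the share that was higher was 55.9% at equal FPKM sums, 48.6% with quantile normalization and 47.5% with median ratio scaling.

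Whether the replicate numbers pair the samples cannot be decided from these values. Deviations from the group means correlated at -0.07 to 0.19 between libraries of the same number and at -0.18 to 0.17 between those of other numbers. Of 9 libraries 4 correlated best with their own number. Over all genes the replicate block gave 5632 calls at 48 h, 5152 at 72 h and 3031 for 72 h against 48 h. Without it 5524, 5029 and 2814 were called. With the replicate block 7, 7 and 2 members were called, as without it. At 48 h AGPAT1 and SOAT1 gained a call with the block (adjusted p = 0.0323 and 0.0468), at 72 h SELENOI gained one (0.0331) and ACOT13 lost one (0.0564), and for 72 h against 48 h CHKA and PTPMT1 gained one (0.0401 and 0.0443).

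Without 1 library the difference in share between 72 h and 0 h ranged, in percentage points, from -6.88 to -5.40 for ACSL1, 7.18 to 8.46 for ACSL3, -1.10 to 0.42 for ACSL4, -0.72 to -0.40 for GPAM, 21.7 to 23.5 for LPIN1, -20.9 to -19.4 for LPIN2, 0.79 to 1.24 for DGAT1 and -18.8 to -15.7 for PLIN2. On the log2 ratio to the other paralogs the LPIN2 change was -1.22 and that of DGAT1 2.51, a size set by the 0.01 FPKM added to both sides since DGAT2 is listed at 0 in 3 libraries, neither past the exact test (adjusted p = 0.0514 and 0.0612). The share of DGAT1 passed the exact test in the main setting (adjusted p = 0.0400), but not without 48 h replicate 1 (adjusted p = 0.0571). That pass rests on DGAT2 values of 0.12 FPKM or less. The share of ACSL4 passed without 72 h replicate 1 or 2 (adjusted p = 0.0408 and 0.0367).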
